A study of Homo sapiens with 18 samples.

Results

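The nuclear genes of oxidative phosphorylation (OXPHOS) were followed across 6 conditions of MDA-MB-231 cells, an established human triple-negative breast cancer line. They were taken by gene symbol from the 60642 symbols counted in each library: the numbered NDUFA, NDUFB, NDUFC, NDUFS and NDUFV genes, SDHA to SDHD, the UQCR genes, the COX genes of the ubiquitous subunits, and the ATP5F1, ATP5M and ATP5P genes, without their pseudogenes. This gave 78 genes. Of these, 36 belong to complex I, 4 to complex II, 8 to complex III, 12 to complex IV and 18 to complex V. NDUFA4 was named as a complex I gene, but its protein is a subunit of complex IV, and it was counted there. The symbols ATP5MD and ATP5MPL are older names of ATP5MK and ATP5MJ.

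OXPHOS takes place in the inner mitochondrial membrane. Complexes I and II pass electrons from NADH and succinate to ubiquinone, complex III passes them to cytochrome c, and complex IV to oxygen. Complexes I, III and IV pump protons, and complex V, the ATP synthase, lets the protons flow back and makes ATP. Most subunits are encoded in the nucleus, and all of complex II is. A small set of core subunits of the other complexes is encoded in mitochondrial DNA, so that assembly draws on both genomes.

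The study asked how HP1γ, a heterochromatin protein encoded by CBX3, and the arginine methyltransferase PRMT5 act on the response to dexamethasone (Dex), a synthetic ligand of the glucocorticoid receptor (GR). All cells carried siRNA at 25 nM for 48 h: a non-specific pool (siNS), a SMART-pool against HP1γ (siHP1γ) or a SMART-pool against PRMT5 (siPRMT5). Each was combined with 100 nM Dex or the vehicle ethanol (Eth) for 8 h. The 6 conditions are therefore siNS Eth, siNS Dex, siHP1γ Eth, siHP1γ Dex, siPRMT5 Eth and siPRMT5 Dex, with 3 biological replicates each and 18 libraries of 1 cell line. Below, "without Dex" means the Eth libraries. The sources do not say whether replicates are separate transfections, so p-values measure the spread between these libraries.

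Each library held between 8682992 and 12472381 counts, and the OXPHOS genes took 0.823% to 1.01% of them. CBX3 fell from a mean of 251 CPM (counts scaled to a common library size) in siNS Eth to 10.1 in siHP1γ Eth, and from 225 to 14.2 with Dex. PRMT5 fell from 245 to 7.38 CPM in siPRMT5 Eth, and from 233 to 10.4 with Dex. Of the markers of the line, VIM lay between 5610 and 9529 CPM in every library, while ESR1, PGR, CDH1 and PTPRC did not exceed 0.218 CPM. CD44 (507 to 844 CPM) and NR3C1, the gene of GR (120 to 185 CPM), were also present. EPCAM (8.42 to 14.5 CPM), ERBB2 (24.2 to 35.1 CPM), PECAM1 (1.09 to 7.99 CPM) and COL1A1 (2.64 to 15.0 CPM) were low but not at 0. AXL, another marker of the line, had a mean of 946 CPM in siNS Eth and 220 in siPRMT5 Eth.

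Of the 78 genes, 74 passed the filter on low counts and were tested. NDUFA6 was listed at 0 in all 18 libraries, where 0 counts allow up to 0.241 to 0.346 CPM by counting error alone. NDUFA3 had 1 count in all libraries together, NDUFA7 had 33 and ATP5MGL had 100, and these 4 genes are not described further. All 37 symbols of mitochondrial DNA were listed at 0 in every library, including the 13 that encode OXPHOS subunits, so only the nuclear side of the complexes could be followed. Many OXPHOS genes have processed pseudogenes, copies in the genome that resemble the mRNA. Among the counted symbols, 45 members had at least 1 pseudogene symbol, and pseudogenes took 7.88% of the counts of members and pseudogenes together. For 8 members the pseudogenes took over 20% of the sum, among them NDUFV2 (96.6%), COX6A1 (70.4%) and ATP5F1E (33.6%). Also, 8 members overlapped another annotated gene over more than 50% of their exons, and NDUFV2 and NDUFB8 were in both groups of 8.

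The members have mostly short transcripts. Their canonical transcripts in GENCODE 44 (hg38) had a median length of 781 bases and a median of 4 exons, and they lay on 22 chromosomes. Their promoters were read from RefSeq (GRCh38.p14), which held 65 of the 78 genes. Those not matched included ATP5F1B, ATP5F1D, ATP5MC3, ATP5MF, ATP5MGL, COX6C, NDUFB5, NDUFB9, NDUFC2, NDUFS5, SDHC and UQCRB. The promoters of 5 members on which the results turn are shown from 250 bases before the RefSeq start to 30 after it, 5′ to 3′ on the strand of the gene. NDUFS6 and COX7C fell with siHP1γ with and without Dex, UQCRC2 fell with siPRMT5 in both, UQCR11 fell with both siRNAs without Dex, and SDHD fell with siHP1γ without Dex and rose with siPRMT5 with Dex. Capitals mark matches to 4 motifs known from promoters of mitochondrial genes, on either strand: NRF1 (GCGCATGC), the ETS family (CCGGAAG), YY1 (AAGATGG) and the site of the ERR receptors (AAGGTCA).

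The windows are chr5:1801157-1801436 for NDUFS6, chr5:86617691-86617970 for COX7C, chr16:21953111-21953390 for UQCRC2, chr11:112086623-112086902 for SDHD, all on the plus strand, and chr19:1605433-1605712 on the minus strand for UQCR11.
NDUFS6: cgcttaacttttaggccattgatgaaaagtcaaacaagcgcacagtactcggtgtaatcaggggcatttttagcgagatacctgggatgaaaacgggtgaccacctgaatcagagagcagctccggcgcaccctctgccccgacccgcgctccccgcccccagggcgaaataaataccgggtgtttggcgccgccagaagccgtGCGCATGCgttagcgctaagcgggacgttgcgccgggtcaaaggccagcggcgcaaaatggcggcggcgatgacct
COX7C: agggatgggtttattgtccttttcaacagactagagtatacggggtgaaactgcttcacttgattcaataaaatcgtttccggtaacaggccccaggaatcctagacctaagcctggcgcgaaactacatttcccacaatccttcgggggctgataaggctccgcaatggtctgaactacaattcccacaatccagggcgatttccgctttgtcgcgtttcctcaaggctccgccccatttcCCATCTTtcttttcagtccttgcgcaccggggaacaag
UQCRC2: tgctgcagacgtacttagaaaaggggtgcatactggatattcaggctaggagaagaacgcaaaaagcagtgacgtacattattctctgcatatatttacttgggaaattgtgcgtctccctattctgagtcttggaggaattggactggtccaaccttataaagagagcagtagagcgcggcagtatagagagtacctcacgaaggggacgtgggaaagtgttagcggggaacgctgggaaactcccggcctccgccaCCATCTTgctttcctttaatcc
UQCR11: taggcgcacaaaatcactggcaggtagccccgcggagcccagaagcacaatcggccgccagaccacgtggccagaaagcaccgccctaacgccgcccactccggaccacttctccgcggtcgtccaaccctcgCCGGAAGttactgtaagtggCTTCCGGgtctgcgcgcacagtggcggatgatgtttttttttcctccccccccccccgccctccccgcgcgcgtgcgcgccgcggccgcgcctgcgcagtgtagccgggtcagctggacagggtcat
SDHD: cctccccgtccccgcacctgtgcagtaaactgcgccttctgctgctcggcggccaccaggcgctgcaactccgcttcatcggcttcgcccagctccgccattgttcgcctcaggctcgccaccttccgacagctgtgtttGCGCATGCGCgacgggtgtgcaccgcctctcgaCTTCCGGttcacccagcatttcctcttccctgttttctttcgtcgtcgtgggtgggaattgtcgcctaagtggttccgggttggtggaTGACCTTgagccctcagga

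The NRF1 match of NDUFS6 began 46 bases before the start. Its ERR match, 24 bases after the start, runs past the printed bases and is not in capitals. COX7C had its YY1 match 8 bases before the start, and UQCRC2 had one 8 bases after it, both on the opposite strand. The matches to the ETS motif in UQCR11 lay 117 and 97 bases before the start. SDHD held overlapping NRF1 matches on both strands, 110 and 108 bases before the start, an ETS match at 77 bases and an ERR match 11 bases after it. Counting any match in a window of 300 bases, NRF1 was found in 14 of 65 members (21.5%), against 6.45% of the tested genes with a promoter and 3.68% of all genes with one. The shares were 32.3%, 22.6% and 12.2% for the ETS motif, 27.7%, 9.51% and 7.11% for YY1, and 16.9%, 3.64% and 4.80% for ERR. At least 1 of the 4 was found in 42 members (64.6%), in 36.1% of the tested genes and in 24.5% of all genes. SP1 (GGGCGG) was found in 64.6% of members, 77.1% of tested genes and 48.3% of all genes. For the 6 bases of a GR motif (AGAACA) the shares were 15.4%, 12.5% and 17.5%. A match is a run of letters and not a binding site. The motifs were searched on both strands, and different motifs may overlap.

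HP1γ depletion without Dex lowered part of the OXPHOS genes and raised none of them past the test. A gene is called where the adjusted p-value of edgeR's quasi-likelihood test (Benjamini-Hochberg over the 15298 tested genes) is under 0.05. Of the 74 members, 24 were lower (32.4%) and 0 were higher, while over all genes 15.2% were lower and 16.5% were higher. At an unadjusted p under 0.05, 1 member was higher and 37 were lower, where 40.9% of all genes passed in either direction. DESeq2 called 0 members higher and 23 lower. In all, 70 of 74 fold changes were below 0, and their median was -0.20 on the log2 scale, against 0.01 over all genes. The called members were 8 of 33 in complex I (24.2%), 6 of 12 in complex IV (50%) and 8 of 17 in complex V (47.1%). In complex II 1 of 4 was called, SDHD, and in complex III 1 of 8 (12.5%), below the 15.2% over all genes. The medians of the complexes were -0.20 for I, -0.08 for II, -0.09 for III, -0.18 for IV and -0.24 for V. Within complex I, 8 of 26 accessory and 0 of 7 core subunits were called lower. Fold changes were below 0 for 23 of the 26 accessory (median -0.23) and all 7 core subunits (median -0.12). The median standard error of a member's fold change was 0.0935 over the comparisons with siNS. With library sizes alone instead of TMM scaling, 14 members were lower and 1 was higher, and over all genes the split moved from 2531 higher and 2329 lower to 3198 and 1814.

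With Dex, fewer members passed. HP1γ depletion lowered 8 of 74 and raised 0, where 12.3% of all genes were lower and 11.7% higher, so that the members' share of 10.8% lower was near the background. At an unadjusted p under 0.05, 1 was higher and 19 were lower, where 35.6% of all genes passed in either direction. DESeq2 called 0 members higher and 9 lower. The median was -0.10, against 0.00 over all genes, and 60 of 74 fold changes were below 0. Of the 8, 6 belonged to complex I (4 of 26 accessory and 2 of 7 core subunits), 1 to complex IV and 1 to complex V. With library sizes alone 1 member was higher and 6 were lower, while over all genes the split moved from 1787 higher and 1882 lower to 2848 and 1269. The medians of all members and of complex IV were then -0.01 and 0.02, against 0.09 over all genes. Without siHP1γ Dex replicate 3, 13 members were lower and 1 was higher.

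**Figure D1:**
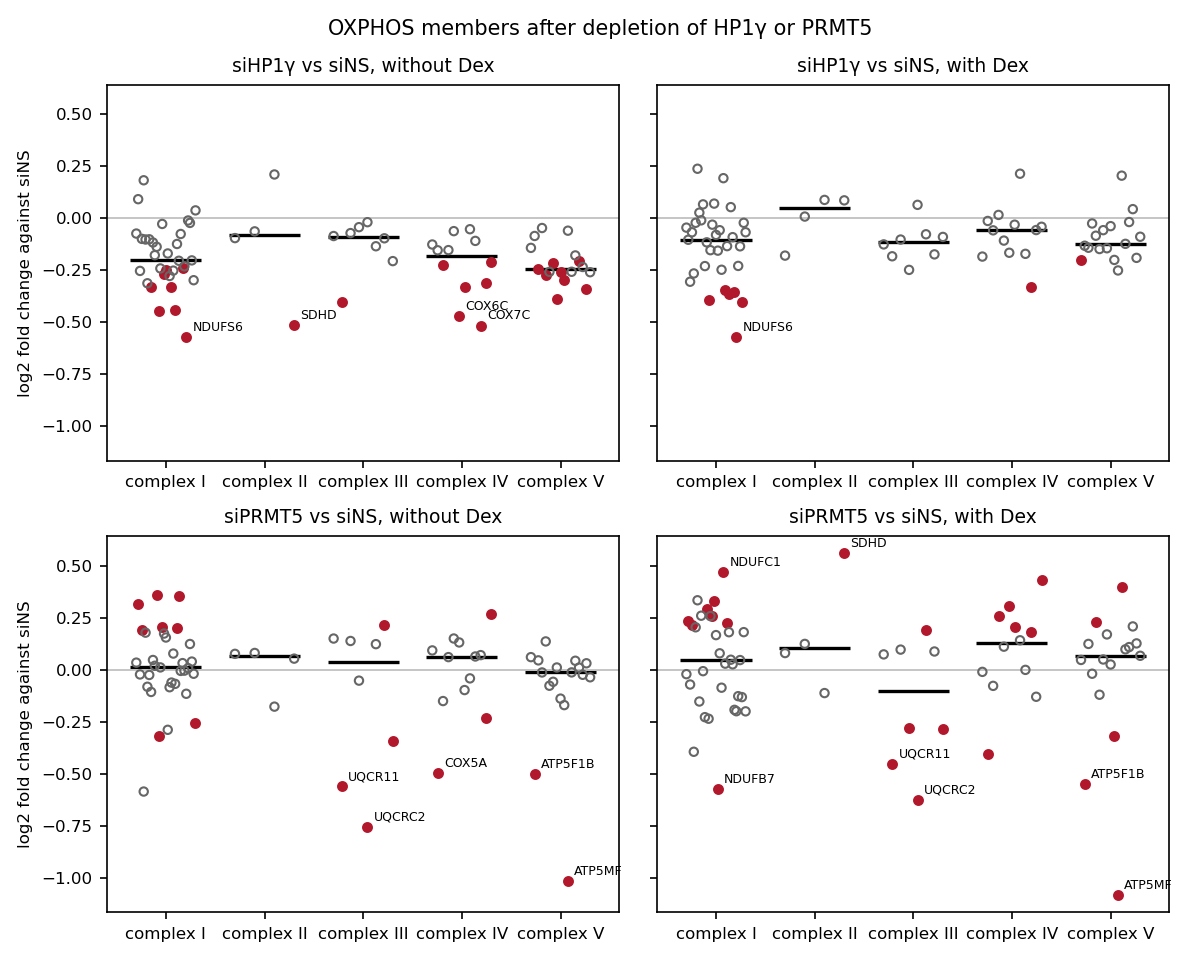
Log2 fold change of each tested OXPHOS gene against siNS (y axis), by complex (x axis), for siHP1γ and siPRMT5 without and with Dex. Filled red points are called (adjusted p under 0.05), open points are not, and black lines are the medians of the complexes. With siHP1γ the points lie mostly below 0, with no called point above it, while with siPRMT5 called points lie on both sides.

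NDUFS6, a zinc-binding accessory subunit of complex I (chr5:1801407-1816048), fell most in both HP1γ comparisons. Its level was 104, 107 and 103 CPM in siNS Eth and 68.0, 75.8 and 67.9 in siHP1γ Eth. With Dex it was 116, 106 and 98.7 in siNS and 63.8, 71.6 and 80.7 in siHP1γ cells. Every siHP1γ library lay below every siNS library. The log2 fold change was -0.57 ± 0.10 (SE) without Dex (adjusted p = 0.000101, edgeR) and -0.57 ± 0.10 with it (adjusted p = 0.000134), that is to 67.3% and 67.4% of siNS. In siPRMT5 cells NDUFS6 was at -0.12 and -0.20 and did not pass the test.

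COX7C, a small subunit of complex IV (chr5:86617928-86620962), had 371, 353 and 362 CPM in siNS Eth and 253, 263 and 244 in siHP1γ Eth. With Dex the levels were 344, 348 and 324 in siNS against 259, 272 and 277 in siHP1γ cells. Its libraries were well apart in both comparisons. It fell to 69.9% without Dex (log2 -0.52 ± 0.06, adjusted p = 1.12e-06) and to 79.5% with it (-0.33 ± 0.06, adjusted p = 0.000416). COX6C, another small subunit of complex IV, read 209, 201 and 206 CPM in siNS Eth and 142, 154 and 148 in siHP1γ Eth (-0.47 ± 0.07, adjusted p = 2.09e-05). The difference with Dex, -0.17, did not pass (adjusted p = 0.0989). NDUFA4 fell by 0.21 without Dex (adjusted p = 0.0277), a call lost without siNS Eth replicate 1, siHP1γ Eth replicate 1 or siHP1γ Eth replicate 3. It was also lost with library sizes alone (adjusted p = 0.108) and with no filter on low counts (adjusted p = 0.0788).

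NDUFB2, an accessory subunit of the membrane arm of complex I, is the other gene of the naming rule that was lower in both comparisons. It had 27.8, 31.8 and 34.5 CPM in siNS Eth and 22.4, 25.2 and 21.7 in siHP1γ Eth, a change of -0.44 ± 0.10 (adjusted p = 0.00163). With Dex the change was -0.39 ± 0.10 (adjusted p = 0.00594). NDUFC2, named here after its values were seen, completes the 4 members called in both, with -0.44 and -0.34. Whether these effects differ with Dex was tested by the interaction described further on, which called no member.

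In complex III, UQCR11, one of its smallest subunits, had 50.6, 50.1 and 56.3 CPM in siNS Eth and 41.6, 39.1 and 38.5 in siHP1γ Eth. All siHP1γ values were lower than all siNS values, and the change was -0.40 ± 0.09 (adjusted p = 0.00120). With Dex it was -0.18 and did not pass (adjusted p = 0.138). The other 7 members of complex III had values between -0.21 and -0.02 without Dex.

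In complex V, the c ring that turns with the proton flow is encoded by 3 genes, ATP5MC1, ATP5MC2 and ATP5MC3, which give the same mature protein. ATP5MC3 had 235, 212 and 244 CPM in siNS Eth and 163, 181 and 183 in siHP1γ Eth. The groups did not overlap, and the change was -0.39 ± 0.07 (adjusted p = 0.000122). ATP5MC2 had 81.8, 80.3 and 88.4 against 74.1, 74.5 and 67.4 CPM (-0.21 ± 0.08, adjusted p = 0.0494), a call lost without any one of 8 libraries, with library sizes alone (adjusted p = 0.170), with no filter (adjusted p = 0.121) and with pseudogene counts added (adjusted p = 0.131). ATP5MC1, the lowest in CPM, had 41.0, 35.6 and 40.0 against 37.3, 27.8 and 32.5 CPM, and its change of -0.26 ± 0.12 did not pass (adjusted p = 0.121). With Dex none of the 3 passed, with -0.15, -0.06 and -0.14 in the same order. The gene of complex V that did pass with Dex was ATP5F1A, the alpha subunit of the catalytic head, with 390, 393 and 389 CPM in siNS Dex and 323, 348 and 348 in siHP1γ Dex (-0.20 ± 0.06, adjusted p = 0.0130). Its call was lost without siHP1γ Dex replicate 1, with library sizes alone (adjusted p = 0.146) and in a fit on the libraries compared only (adjusted p = 0.0572).

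Complex II has 4 subunits. SDHA carries the flavin and SDHB the iron-sulfur clusters, and SDHC and SDHD anchor them in the membrane. SDHD had 85.1, 66.9 and 80.7 CPM in siNS Eth, 47.0, 58.0 and 57.6 in siHP1γ Eth and 78.1, 66.8 and 95.9 in siPRMT5 Eth. With Dex it had 65.3, 64.0 and 61.0 in siNS, 86.6, 55.4 and 59.1 in siHP1γ and 94.3, 104 and 81.1 in siPRMT5 cells. The siHP1γ Eth libraries lay below the siNS Eth ones and the siPRMT5 Dex libraries above the siNS Dex ones, while siHP1γ Dex overlapped siNS Dex, with replicate 1 above the other two. SDHD fell with siHP1γ without Dex (-0.51 ± 0.14, adjusted p = 0.00668) and rose with siPRMT5 with Dex (0.56 ± 0.14, adjusted p = 0.00184). SDHA, SDHB and SDHC were called in none of the 4 comparisons with siNS, with values from -0.18 to 0.21. SDHA shares 69.4% of its exons with another annotated gene.

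**Figure D2:**
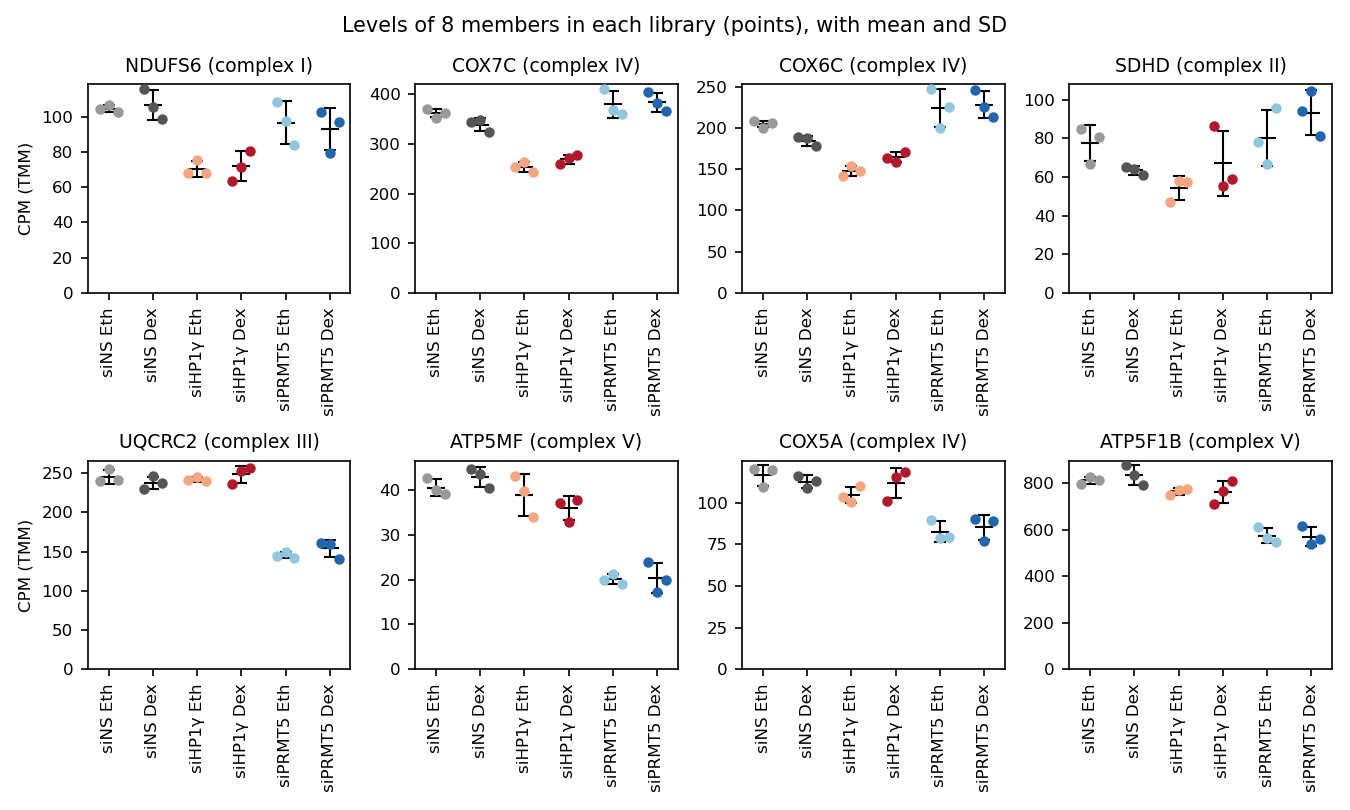
CPM (y axis, from 0) of 8 OXPHOS genes in each of the 18 libraries, by condition (x axis). Points are libraries, and black marks are means with SD of the 3 replicates. Every siHP1γ library lies below all others for COX7C and COX6C, and every siPRMT5 library lies below all others for UQCRC2, ATP5MF, COX5A and ATP5F1B.

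Per library, the members' median log2 ratio to siNS Eth lay between -0.03 and 0.04 in siNS Eth and between -0.25 and -0.16 in siHP1γ Eth, so that these groups were apart. It lay between -0.09 and 0.00 in siNS Dex and between -0.18 and -0.10 in siHP1γ Dex, where the groups did not overlap but lay 0.01 apart. In siPRMT5 Eth it ran from -0.10 to 0.09 and in siPRMT5 Dex from -0.02 to 0.12, and both overlapped their controls. The highest value of each siPRMT5 condition was replicate 1. CPM is a share of a library, and in bulk RNA fewer cells that express a gene and less of its RNA per cell cannot be told apart.

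**Figure D3:**
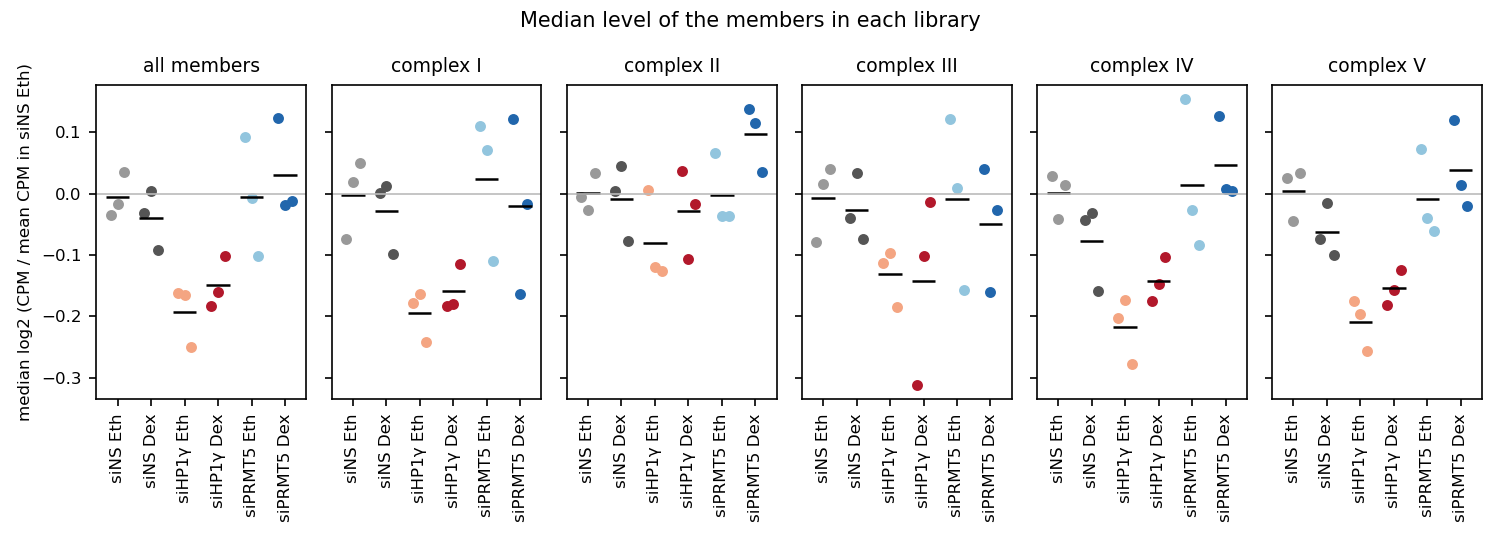
Median over the OXPHOS genes of log2 (CPM / mean CPM in siNS Eth) in each library (y axis), by condition (x axis), for all tested members and for each complex. Points are libraries and black lines are means of 3. The siHP1γ Eth points lie below the siNS Eth points for all members (-0.25 to -0.16 against -0.03 to 0.04), and the siPRMT5 points scatter around 0.

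With PRMT5 depletion some members fell, others rose, and the median of the group was near 0. Without Dex, 8 of 74 members were higher (10.8%) and 9 were lower (12.2%), both below the shares over all genes, 20.6% higher and 21.6% lower. With Dex, 16 were higher (21.6%) and 9 lower (12.2%), against 20.6% and 21.9% over all genes. The members' medians were 0.01 and 0.07, against 0.00 over all genes in each, and the first was negative under some alternatives (-0.03 to 0.06). Complex III had the most called decreases for its size, 3 of 8 without and 4 of 8 with Dex. In complex I, 6 were higher and 2 lower of 33 without Dex and 7 and 1 with it, so that the shares higher, 18.2% and 21.2%, were near those of all genes. Complex IV had 1 higher and 2 lower of 12, and then 5 and 1. In complex V 0 were higher and 2 lower of 17 without Dex, and 2 and 3 with it. In complex II only SDHD passed, with Dex.

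ATP5MF, the f subunit in the membrane part of the ATP synthase (chr7:99448475-99466186), fell most. It had 42.6, 40.1 and 39.1 CPM in siNS Eth and 19.96, 21.3 and 19.1 in siPRMT5 Eth. With Dex it had 44.6, 43.7 and 40.5 in siNS and 23.9, 17.2 and 19.9 in siPRMT5 cells. Every siPRMT5 library was thus well below the lowest siNS library. The fall was to 49.5% without Dex (log2 -1.01 ± 0.11, adjusted p = 4.28e-08) and to 47.2% with it (-1.08 ± 0.11, adjusted p = 8.93e-09). The annotation has a readthrough gene, ATP5MF-PTCD1, on the same strand over 33.2% of its transcript. How the counting treated reads shared by both was not tested.

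UQCRC2, a core protein of complex III (chr16:21953288-21983660), had 239, 255 and 241 CPM in siNS Eth and 145, 149 and 142 in siPRMT5 Eth. With Dex the values were 230, 246 and 237 against 161, 160 and 141. No exon of it overlapped another gene, and the groups were far apart. The change was -0.76 ± 0.06 without Dex (adjusted p = 6.54e-10) and -0.63 ± 0.06 with it (adjusted p = 1.63e-08). UQCR11 fell here as well, to 36.4, 37.5 and 32.8 CPM without Dex (-0.56 ± 0.09, adjusted p = 1.87e-05) and to 40.7, 31.7 and 35.8 with it (-0.45 ± 0.09, adjusted p = 0.000216). UQCRQ fell as well, from a mean of 168 to 133 CPM without Dex and from 161 to 132 with it. UQCRC1, named after its values were seen, went from 114.5 to 94.5 CPM with Dex. Of the 8 members of complex III, 3 were lower and 1 higher without Dex, and 4 and 1 with it. The higher ones were UQCRH, the hinge protein, without Dex (0.21, adjusted p = 0.0306) and UQCRFS1, the Rieske iron-sulfur protein, with it (0.19, adjusted p = 0.0428). Leaving out 1 library at a time lost the call of UQCRH in 4 fits and that of UQCRFS1 in 6. The first was also lost in a fit on the libraries compared only, and the second with no filter on low counts and with pseudogene counts added.

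ATP5F1B, the catalytic beta subunit of the ATP synthase (chr12:56638175-56645984), had 798, 826 and 814 CPM in siNS Eth and 612, 565 and 547 in siPRMT5 Eth. With Dex it had 878, 837 and 792 against 615, 538 and 559. Its partner in the catalytic head, ATP5F1A, stayed at 0.06 and 0.05 and did not pass. The fall of ATP5F1B was -0.50 ± 0.07 without Dex (adjusted p = 9.71e-07) and -0.55 ± 0.07 with it (adjusted p = 2.24e-07). COX5A, a matrix-facing subunit of complex IV (chr15:74919791-74938083), had 120, 109 and 120 CPM in siNS Eth against 89.7, 78.5 and 79.4 in siPRMT5 Eth, and 116, 109 and 113 against 90.02, 76.7 and 88.95 with Dex. All siPRMT5 values were below all siNS values, and the changes were -0.50 ± 0.08 (adjusted p = 1.70e-05) and -0.40 ± 0.08 (adjusted p = 0.000190).

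Among the increases, NDUFB11, an accessory subunit encoded on chromosome X, had 46.5, 52.9 and 51.8 CPM in siNS Eth and 67.7, 69.7 and 56.7 in siPRMT5 Eth (0.36 ± 0.08, adjusted p = 0.00125), and rose by 0.29 ± 0.08 with Dex (adjusted p = 0.00625). NDUFC1, a small accessory subunit, rose with Dex from 18.8, 15.7 and 19.7 to 27.1, 27.1 and 20.7 CPM (0.47 ± 0.12, adjusted p = 0.00225). The accessory subunit NDUFB7 went the other way with Dex, from 46.7, 55.5 and 55.5 to 33.8, 33.4 and 38.8 CPM (-0.57 ± 0.14, adjusted p = 0.00120). NDUFB2 was lower without Dex (-0.32 ± 0.10, adjusted p = 0.0144), a call lost without siNS Eth replicate 3 or siPRMT5 Eth replicate 2. In complex IV, NDUFA4 had 164, 150 and 152 CPM in siNS Eth and 186, 184 and 192 in siPRMT5 Eth. It rose by 0.27 ± 0.07 without Dex (adjusted p = 0.00381) and by 0.43 ± 0.07 with it (adjusted p = 2.50e-05). ATP5MG, the g subunit in the membrane part of the ATP synthase, rose with Dex from 65.4, 54.0 and 55.1 to 81.4, 80.0 and 68.4 CPM (0.40 ± 0.11, adjusted p = 0.00539).

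The siPRMT5 effects without and with Dex rest on different libraries. Of the 17 members called without and the 25 called with Dex, 12 were called in both. This is 70.6% and 48% of the lists, against 67.6% and 67.2% for all genes called. All 12 kept their direction, as did 4296 of the 4358 genes called in both over all genes. Lower in both were ATP5F1B, ATP5MF, COX5A, UQCR11, UQCRC2 and UQCRQ. Higher in both were NDUFA10, NDUFA12, NDUFA4, NDUFB11, NDUFB4 and NDUFS1. UQCRQ and the higher genes other than NDUFA4 and NDUFB11 were named after their values were seen. Across the 74 members the 2 sets of fold changes had a Pearson r of 0.82, against 0.75 across all 15298 genes. For siHP1γ the members' r was 0.24, against 0.66 across all genes, and 4 were called in both, which is 16.7% of the 24 and 50% of the 8, against 47.4% and 62.8% for all genes called. These are correlations across genes, which are not independent replicates.

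**Figure D4:**
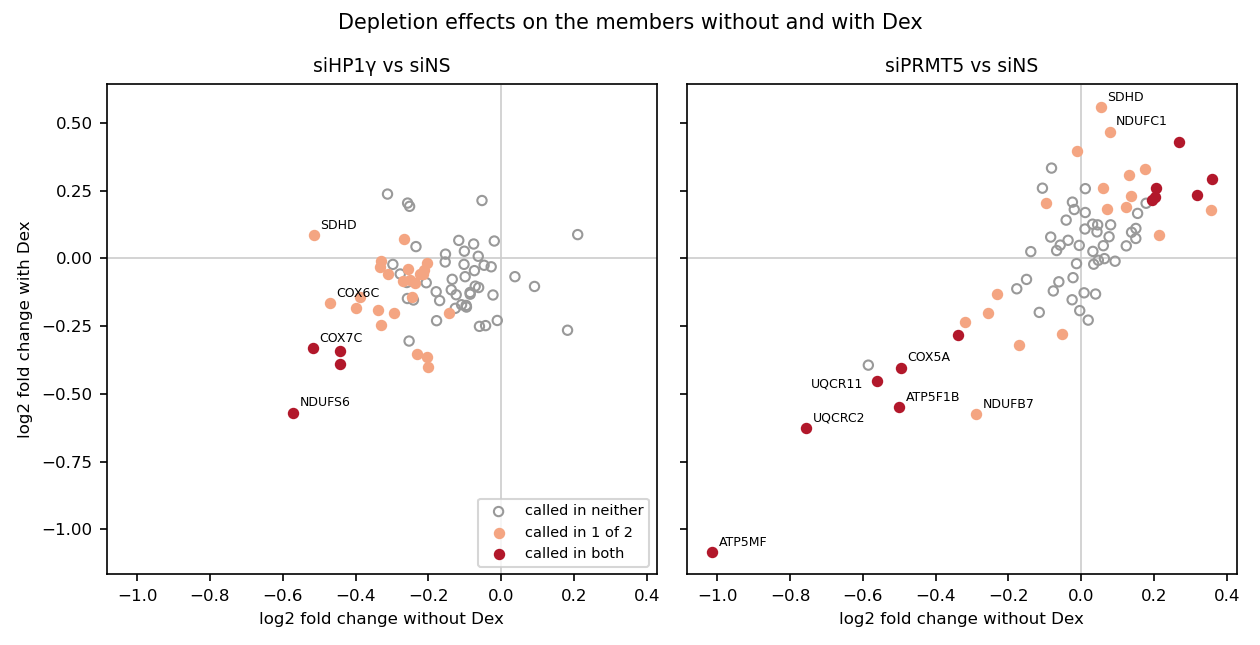
Log2 fold change against siNS without Dex (x axis) and with Dex (y axis) of the 74 tested OXPHOS genes, for siHP1γ (left) and siPRMT5 (right). Filled points are called in both comparisons (dark red) or 1 of them (light), open points in neither. The siPRMT5 points lie along a line from ATP5MF at -1.01 and -1.08 upwards (r = 0.82), and the siHP1γ points form a cloud left of 0 (r = 0.24).

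The 2 depletions were also set against each other, in a contrast without siNS means, although all 18 libraries entered the estimate of the spread. Without Dex, 28 of 74 members were higher in siPRMT5 cells and 6 lower. Over all genes 48.4% were called in either direction, 3580 higher and 3818 lower. With Dex 29 members were higher and 6 lower, where 49.9% of all genes were called, 3730 higher and 3905 lower. With library sizes alone the members' split with Dex was 20 and 9. The members' medians were 0.22 and 0.18, and over all genes 0.00 in both. Among called members, the largest differences without Dex were COX6C (0.60 ± 0.07, adjusted p = 1.91e-07), COX7C (0.59 ± 0.06) and SDHD (0.57 ± 0.14) on the higher side. On the lower side they were ATP5MF (-0.95 ± 0.11, adjusted p = 8.05e-08), UQCRC2 (-0.74 ± 0.06) and ATP5F1B (-0.41 ± 0.07). With Dex COX7C (0.51 ± 0.06, adjusted p = 2.94e-07) and SDHD (0.47 ± 0.14) were among the largest on the higher side, and the largest on the lower side were ATP5MF (-0.83 ± 0.11), UQCRC2 (-0.69 ± 0.06) and NDUFB7 (-0.42 ± 0.14). All of these passed the test. NDUFB7 did not without siHP1γ Dex replicate 3, where the difference was -0.25. SDHC differed without Dex, with 38.8, 38.5 and 42.7 CPM in siHP1γ Eth and 27.9, 29.5 and 34.3 in siPRMT5 Eth (-0.39 ± 0.10, adjusted p = 0.00248).

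Few members passed the test for Dex itself. In siNS cells 0 of 74 members were called at an adjusted p under 0.05, while 4.88% of all genes were higher and 4.28% lower. By a stricter rule, an adjusted p under 0.01 and a change of at least 1.5-fold, 0 members and 2.71% of all genes were called. At an unadjusted p under 0.05 there were 7 members, 1 of them higher, where 22.4% of all genes passed, and DESeq2 called 1, lower. The smallest adjusted p was that of COX7A2, a subunit of complex IV named after its values were seen, with 165, 154 and 162 CPM in siNS Eth and 146, 141 and 127 in siNS Dex (-0.22 ± 0.07, adjusted p = 0.0665). The median of the members was -0.05, and 50 of 74 were below 0.

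In siNS cells NDUFV2, a core subunit of complex I, had 3.75, 2.96 and 2.28 CPM without and 4.59, 4.36 and 4.72 with Dex, a difference that did not pass (0.61, adjusted p = 0.156). In siHP1γ cells 1 member was called higher with Dex and 0 lower, against 2.44% and 3.10% of all genes. In siPRMT5 cells 1 was higher and 0 lower, against 7.52% and 8.48%. By the stricter rule there were 0 in both, against 1.67% and 5.44%. The gene called in both was NDUFV2, named after its values were seen. It had 1.70, 1.59 and 3.87 CPM in siHP1γ Eth and 4.64, 4.60 and 4.23 in siHP1γ Dex (0.89 ± 0.26, adjusted p = 0.0456). In siPRMT5 cells it went from 1.82, 3.29 and 3.70 to 4.89, 4.77 and 5.998 CPM (0.81 ± 0.26, adjusted p = 0.0296). Only 699 counts of NDUFV2 stood in the 18 libraries, against 19611 of its pseudogene NDUFV2P1, and 89.96% of its exons overlap another annotated gene. With the pseudogene counts added, NDUFV2 was not called in either.

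Whether Dex acts differently on these genes after a depletion was tested by the interaction, the Dex response in depleted cells minus that in siNS cells. For siHP1γ 0 members were called by edgeR and by DESeq2, and over all genes 0.118% were higher and 0.281% lower. At an unadjusted p under 0.05 there were 10 of 74, of which 9 were higher, while 17.2% of all genes passed. The members' median was 0.09, against -0.01 over all genes. The smallest adjusted p was that of SDHD (0.60 ± 0.20, adjusted p = 0.134). For siPRMT5 0 were called by either tool, where 1.58% of all genes were higher and 2.23% lower. At an unadjusted p under 0.05 there were 5 of 74, all higher, while 19.0% of all genes passed. COX7A2 had the smallest adjusted p (0.30 ± 0.10, adjusted p = 0.102). The different counts of called members with and without Dex in siHP1γ cells are thus not shown to be a difference in effect for any single gene.

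Other genes of the pathway were taken from lists of assembly factors, regulators and neighbouring enzymes, and their counts stand against the shares over all genes given above for each comparison. Of 16 assembly factors of complex I, 1 was higher and 3 lower (18.8%) with siHP1γ without Dex, where 15.2% of all genes were lower, and 1 and 2 with Dex. With siPRMT5, 0 were higher and 7 lower (43.8%) without Dex, where 21.6% of all genes were lower, and 0 and 5 (31.2%) with Dex, against 21.9%. TMEM186, a factor of complex I assembly, went from 13.3 ± 0.521 CPM (SD, n = 3) in siNS Dex to 8.58 ± 1.84 in siPRMT5 Dex. With siHP1γ with Dex, TMEM126B was at 0.31 ± 0.07 (adjusted p = 0.00187) and NUBPL, which delivers iron-sulfur clusters to complex I, at -0.46 ± 0.12 (adjusted p = 0.00691).

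Of 4 assembly factors of complex II, 1 was lower with siHP1γ in each comparison, and 1 without and 0 with Dex with siPRMT5. SDHAF2, which attaches the flavin to SDHA, was the one called with siHP1γ with Dex. It went from 10.6 ± 0.736 CPM in siNS Dex to 3.67 ± 0.345 (-1.52 ± 0.18, adjusted p = 4.50e-07), beside SDHA at -0.18, which did not pass. Of 6 assembly factors of complex III, 1 was higher and 0 lower with siHP1γ in each comparison. With siPRMT5 0 were higher and 4 lower without Dex, and 1 and 4 with Dex. TTC19, which acts in the maturation of complex III, went from 169 ± 8.53 to 76.8 ± 2.65 CPM with siPRMT5 with Dex (-1.14 ± 0.07, adjusted p = 1.33e-12). LYRM7, a chaperone of the Rieske protein UQCRFS1, rose there (0.44 ± 0.13, adjusted p = 0.00865), and UQCC1, a factor of cytochrome b assembly, rose with siHP1γ with Dex (0.37 ± 0.06, adjusted p = 7.68e-05).

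Of 24 factors of complex IV, 0 were higher and 5 lower (20.8%) with siHP1γ without Dex, and 1 and 2 with it. With siPRMT5 the counts were 1 and 4, and 2 and 2. COX17, a copper chaperone, rose with siHP1γ with Dex (0.41 ± 0.12, adjusted p = 0.0108), and COA5 fell (-0.36 ± 0.10, adjusted p = 0.00649). With siPRMT5 with Dex, COX16 fell (-1.10 ± 0.19, adjusted p = 3.82e-05) and COA6 rose (0.28 ± 0.11, adjusted p = 0.0426). Of 5 assembly factors and inhibitors of complex V, 1 was higher and 2 lower with siHP1γ without Dex and 0 with it, and with siPRMT5 the counts were 2 and 0, and 2 and 1. ATPAF2, an assembly factor of the ATP synthase head, rose with siPRMT5 with Dex (0.60 ± 0.12, adjusted p = 0.000199), and ATP5IF1, the inhibitor of the synthase, fell (-0.27 ± 0.10, adjusted p = 0.0306).

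Of 17 regulators of mitochondrial transcription and biogenesis, 0 were higher and 5 lower with siHP1γ without Dex, and 2 and 3 with it. With siPRMT5 the counts were 1 and 2, and 6 and 3. PPARGC1B, a coactivator of mitochondrial genes, fell with siHP1γ with Dex from 37.3 ± 0.749 to 25.9 ± 0.530 CPM (-0.53 ± 0.09, adjusted p = 0.000172), and TFB2M, a mitochondrial transcription factor, rose (0.27 ± 0.10, adjusted p = 0.0486). With siPRMT5 with Dex, GABPA, an ETS factor of mitochondrial genes, rose (0.54 ± 0.15, adjusted p = 0.00580), and SSBP1, which binds mitochondrial DNA, fell (-0.43 ± 0.15, adjusted p = 0.0203). Of 16 genes of the citric acid cycle, 2 were higher and 4 lower with siHP1γ without Dex and 0 and 1 with it, and with siPRMT5 3 and 4, and 3 and 5. CS, the citrate synthase that opens the cycle, went from 123 ± 12.1 to 42.8 ± 1.41 CPM with siPRMT5 with Dex (-1.52 ± 0.08, adjusted p = 1.20e-13). SUCLA2 rose there (0.28 ± 0.10, adjusted p = 0.0241) and SUCLG1 fell with siHP1γ with Dex (-0.28 ± 0.08, adjusted p = 0.0127), both subunits of succinyl-CoA ligases. Of 4 tested subunits and isoforms outside the symbol rule, 2 were lower with siHP1γ in each comparison, and 2 without and 1 with Dex with siPRMT5. CYCS, cytochrome c, fell with siHP1γ with Dex (-0.25 ± 0.09, adjusted p = 0.0396), and CYC1, cytochrome c1 of complex III, fell with siPRMT5 with Dex (-0.27 ± 0.08, adjusted p = 0.00717).

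The members' fold changes were set against their level and length. Over the 4 comparisons with siNS the Pearson r across the 74 members was -0.04 to 0.24 for log2 CPM and 0.12 to 0.22 for log2 length.

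Ribosomal protein genes, which also encode the parts of large complexes, were counted in the same way. Without Dex 44 of 74 tested cytosolic ribosomal protein genes were lower with siHP1γ and 0 higher, with a median of -0.28, and 19 of 74 mitochondrial ribosomal protein genes were lower and 1 higher, with a median of -0.16. With Dex these were 33 and 0 (-0.23), and 9 and 2 (-0.07). The OXPHOS genes, with medians of -0.20 and -0.10, lay between both groups. With siPRMT5 without Dex the mitochondrial ribosomal genes had 19 lower and 3 higher (-0.13), and the cytosolic ones 8 and 0 (-0.03). With siPRMT5 with Dex the mitochondrial ones had 16 lower and 13 higher (-0.06), and the cytosolic ones 2 and 9 (0.04). No test of the difference between these groups was made. Of all 74 OXPHOS genes, 46 were called in at least 1 of the 4 comparisons with siNS. The same share over all genes was not counted, and each comparison alone called 11.7% to 21.9% of all genes in each direction. The 46 are therefore no result about the members. Called in none were 28, among them SDHA, SDHB, SDHC, COX4I1, NDUFS3 and UQCRB.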

How the data were processed

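RNA of MDA-MB-231 cells was made into libraries with Lexogen kits carrying unique dual indices and sequenced on a NextSeq 500. The authors aligned reads to hg38 with Bowtie2 2.4.2 and deposited raw read counts per gene symbol from htseq-count 0.9.1. Bowtie2 does not split a read over an intron. The strand setting, the annotation and the chemistry of the kit are not given in the sources used here. A deposited table of the authors' own comparisons (DESeq2 2.11.40.7, with log2 fold changes and p-values) was not used.

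The counts of the 18 libraries were fitted in edgeR 4.0.16 (R 4.3.3) with 1 mean per condition. The filter filterByExpr kept 15298 genes, and TMM scaling and the quasi-likelihood test with Benjamini-Hochberg adjustment over those genes followed, with 12 residual degrees of freedom. CPM values of the OXPHOS genes and the other genes of the pathway use TMM-scaled library sizes. Those of CBX3, PRMT5 and the markers of the line, and the limits for 0 counts, use total counts. Standard errors (SE) are the size of the log2 fold change over the square root of F. For a single gene, an exact permutation test of 3 against 3 libraries cannot give a p-value below 0.1, so none was used. Totals of 8682992 to 12472381 counts set the precision, and intervals for 0 counts cover counting error only.

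The members and gene lists were chosen with earlier results of these data known. Named were the complex II and c ring genes, the called member with the largest change each way for complexes I, III, IV and V in each comparison with siNS, the 3 largest called differences each way between the siRNAs, members called in a Dex response by the stricter rule (adjusted p under 0.01 and 1.5-fold), up to 3 called members each way for each interaction, and the called gene with the largest change each way in each pathway list with Dex. Other genes are marked where they were named after their values were seen. Values of 1 member named by these criteria are not reported here. Positions come from GENCODE 44 and promoters from RefSeq, matched by symbol for 65 members. The fit was tested on simulated data. Alternatives were library sizes alone, DESeq2 size factors, DESeq2 1.42.0, other count filters, fits on the libraries compared only, pseudogene counts added, a replicate block, and fits that dropped 1 of the 18 libraries at a time. A further alternative, members with few reads on pseudogenes or overlapping genes, was chosen after seeing the data. Tables and figures were made with Python 3.11.15, pandas 2.3.3 and matplotlib 3.10.9.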

Additional observations from a re-analysis of the deposited data

How the results depend on the processing

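The 74 results of named genes called in the main fit gave 1924 values under the alternatives. Of these, 1860 kept their direction and side of the threshold, 64 were no longer called and 0 changed sign. Most fits that dropped 1 library dropped one outside the conditions compared, so a high share kept was partly built in. For siHP1γ without Dex (24 members called), library sizes alone gave 15 and a fit on the libraries compared only gave 38. For Dex in siNS cells (0 called), DESeq2 gave 1, the libraries compared only 2 and a replicate block 1. For Dex in siHP1γ cells (1 called), the count was 3 with no filter on low counts, and 0 with the libraries compared only, with pseudogene counts added and over members with few shared reads. For Dex in siPRMT5 cells (1 called), the last of these and added pseudogene counts each gave 0. With no filter the interactions gave 2 for siHP1γ and 1 for siPRMT5, against 0 each. The causes were not tested.

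Leaving out 1 library at a time gave 16 to 31 members called for siHP1γ without Dex and 6 to 14 with Dex, 12 to 20 for siPRMT5 without Dex and 20 to 29 with it. Between the siRNAs it gave 28 to 48 without Dex and 26 to 38 with Dex. Each Dex response gave 0 to 1, the siHP1γ interaction 0 to 0 and the siPRMT5 interaction 0 to 1.

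The replicate numbers are shared by the conditions. Same-numbered libraries had correlations of -0.131 to 0.172, within the range of the other pairs (-0.3157 to 0.3155), and were not treated as pairs. For siPRMT5 against siNS with Dex, however, all same-numbered correlations (0.0139 to 0.0989) were above the others (-0.0822 to 0.00269). With a replicate block the counts were 24 and 8 for siHP1γ without and with Dex, 17 and 26 for siPRMT5, 37 and 35 between the siRNAs, 1 in each Dex response and 0 in both interactions. With 3 libraries per condition and a median standard error of 0.0935, small changes of single members may go uncalled. Members with few counts, such as NDUFV2, are the least precise.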
